A study of Mus musculus with 6 samples.

Results

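Wnt ligands are lipid-modified secreted proteins, and the 10 genes described here are 8 ligand genes, Wnt3, Wnt4, Wnt5a, Wnt5b, Wnt6, Wnt9b, Wnt10a and Wnt11, and 2 genes that ligands need to leave the cell, Porcn and Wls. They were taken by gene symbol from a deposited table of 36172 genes, which lists 19 Wnt ligand genes in all. Of the 10 members, 9 were above the lowest value of the table in at least 1 library and 4 (Wnt6, Wnt10a, Wnt5b and Wls) passed the filter used for testing. The libraries are RNA sequencing of intestinal tumor-derived organoids, which are gel cultures of tumor epithelial cells, from C57BL/6 mice aged 15 to 20 weeks. All 6 libraries carry a truncating Apc mutation, Apc Δ716, together with loss of heterozygosity of Apc, controls included. They differ in Trp53, with 2 mice for each of 3 genotypes, each mouse giving its own organoids. Apc Δ716 Trp53 +/+ organoids have wild-type p53, Apc Δ716 Trp53 flox/flox organoids carry an unrecombined allele that makes no p53, and in Apc Δ716 Trp53 R270H/R270H organoids this allele was recombined in the mouse by tamoxifen through villin-CreER, a recombinase limited to intestinal epithelium, so that they express the missense protein p53 R270H. The comparisons ask which Wnt genes go with the missense protein and which go with the absence of p53.

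Porcn encodes the enzyme of the endoplasmic reticulum that attaches a fatty acid to Wnt proteins, and Wls encodes the carrier that takes the lipid-bound ligand to the cell surface. Ligands such as Wnt3 act mainly through Frizzled and Lrp receptors on β-catenin, whereas Wnt5a, Wnt5b and Wnt11 are best known for β-catenin-independent signaling through receptors such as Ror2. In the small intestine Paneth cells are a known epithelial source of Wnt3, and cells of the stroma supply other ligands. In Apc mutant cells β-catenin is stabilized downstream of the receptors, so that the canonical pathway is active whether or not a ligand is bound.

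The values are rpkm, mapped reads scaled by gene length and by library size, which can be compared between genes within a library. No value was below 1 rpkm, a floor to which lower values appear to have been raised, and 23760 genes stood at it in all 6 libraries. Depth was estimated from the steps of 1 read in short RNA genes. The estimate for Trp53 flox/flox replicate 1, 48.45 M mapped reads, rested on only 7 such genes and was left out. In the other 5 libraries depth was 44.25 to 47.35 M mapped reads. At this depth 1 rpkm stands for about 84 to 90 reads of Porcn, the member with the shortest exons (1.898 kb), and 311 to 333 reads of Wnt5a, the member with the longest (7.029 kb), so a gene at the floor is not shown to be silent. Trp53 itself was at 75.1±1.10 rpkm (mean±s.d., n=2) in the Trp53 +/+ libraries, 2.11±0.529 rpkm in those of Trp53 flox/flox and 77.7±7.0 rpkm in those of Trp53 R270H/R270H, as the labels require. The libraries of a genotype were not equally alike. The median s.d. of log2 values between libraries was 0.0463 in Trp53 +/+ and 0.0621 in Trp53 R270H/R270H but 0.247 in Trp53 flox/flox. For the members that passed the filter used for testing, calls are therefore also given without the library or libraries that change them. Calls made with a lower filter were not repeated with a library left out. All 8 epithelial markers examined (Epcam, Cdh1, Vil1, Krt8, Krt18, Krt19, Cdx1 and Cdx2) were above the floor in every library, with a summed level of 2713 and 2752 rpkm in the Trp53 +/+ libraries, 4024 and 4305 in the Trp53 flox/flox libraries, and 2253 and 2401 in the Trp53 R270H/R270H libraries. By limma, Krt8 and Krt19 were higher in Trp53 flox/flox and Krt19 was lower in Trp53 R270H/R270H, each against Trp53 +/+, and Krt8, Krt18 and Krt19 were lower in Trp53 R270H/R270H against Trp53 flox/flox. The part of these shifts in the results below was not tested. In bulk RNA, fewer cells that express a gene and less RNA per cell cannot be told apart.

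Wnt5b, Wnt6, Wnt9b and Wls are 4 of the 7 members with both Trp53 R270H/R270H libraries above both Trp53 +/+ libraries. How many of all genes share this order was not counted. Upstream sequences of these 4 genes are shown so that the letters next to their start sites can be read beside the values below. Each is the 250 bases before a start in RefSeq on GRCm38.p6, written 5′ to 3′ on the strand of the gene. RefSeq lists 3 starts for Wnt5b, and the most upstream start and the start nearest to the end of the gene are shown, since gene-level rpkm does not say which was used. The last line holds the only TCF/LEF match among the windows printed here. Capitals mark matches, on either strand and with overlaps allowed, to the TCF/LEF core CTTTGA, which is bound by the nuclear partners of β-catenin, to the Sp1 motif GGGCGG or to the motif TATAAA of the general transcription machinery.
Wnt6, chr1:74771642-74771891, plus strand: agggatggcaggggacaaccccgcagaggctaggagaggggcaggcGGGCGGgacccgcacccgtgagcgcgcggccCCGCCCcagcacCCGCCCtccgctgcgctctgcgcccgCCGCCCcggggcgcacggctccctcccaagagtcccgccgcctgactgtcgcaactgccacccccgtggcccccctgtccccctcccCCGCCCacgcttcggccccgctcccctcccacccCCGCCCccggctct
Wls, chr3:159839400-159839649, plus strand: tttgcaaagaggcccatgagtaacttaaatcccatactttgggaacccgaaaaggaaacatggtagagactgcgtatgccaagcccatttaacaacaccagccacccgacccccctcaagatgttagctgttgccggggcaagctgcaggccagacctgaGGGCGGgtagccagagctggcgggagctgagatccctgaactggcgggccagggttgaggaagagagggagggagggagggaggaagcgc
Wnt9b, chr11:103749822-103750071, minus strand: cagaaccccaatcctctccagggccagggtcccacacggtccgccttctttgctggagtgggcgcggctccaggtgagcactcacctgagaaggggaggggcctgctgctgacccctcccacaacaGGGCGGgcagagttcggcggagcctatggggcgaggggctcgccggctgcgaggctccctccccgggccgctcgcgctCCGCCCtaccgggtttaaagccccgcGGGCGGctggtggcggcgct
Wnt5b, most upstream start, chr6:119544348-119544597, minus strand: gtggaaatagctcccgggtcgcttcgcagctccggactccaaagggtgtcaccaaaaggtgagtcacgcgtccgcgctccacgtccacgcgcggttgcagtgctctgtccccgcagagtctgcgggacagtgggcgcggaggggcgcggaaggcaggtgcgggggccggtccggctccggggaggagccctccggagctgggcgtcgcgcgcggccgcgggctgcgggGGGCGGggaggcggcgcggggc
Wnt5b, start nearest to the gene end, chr6:119449387-119449636, minus strand: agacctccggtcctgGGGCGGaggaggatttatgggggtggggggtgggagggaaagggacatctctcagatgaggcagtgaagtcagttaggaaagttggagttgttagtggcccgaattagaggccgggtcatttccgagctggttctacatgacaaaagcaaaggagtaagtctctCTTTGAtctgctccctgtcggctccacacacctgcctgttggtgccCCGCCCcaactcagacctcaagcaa

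Among all 32851 promoter windows of the same length, 13.8% held CTTTGA, 32.7% held GGGCGG and 12.4% held TATAAA. The Wnt6 window held 6 Sp1 motifs, 28 CpG dinucleotides and 79.6% G and C, with neither of the other motifs. The Wnt9b window held 3 Sp1 motifs and 22 CpG dinucleotides (72.0% G and C). At the most upstream Wnt5b start there was 1 Sp1 motif with 35 CpG dinucleotides (75.2% G and C), whereas the window of the start nearest to the gene end held 1 CTTTGA and 2 Sp1 motifs with 7 CpG dinucleotides (55.6% G and C). The Wls window held 1 Sp1 motif, 8 CpG dinucleotides and 58.0% G and C. These matches describe letters in the windows and are not measured binding sites. The Wnt4 window, which is not printed, held 8 Sp1 motifs, 44 CpG dinucleotides and 85.2% G and C. The windows of Wnt3 and Wnt11 and of the middle Wnt5b start are not printed either, nor are Wnt10a, Wnt5a and Porcn. The window of the more upstream Wnt11 start held 1 CTTTGA, 4 Sp1 motifs and 1 TATAAA, and Wnt11 was at the floor in all 6 libraries.

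Wnt6 and Wnt10a, which lie head to tail on chromosome 1, were the most abundant member ligands in both genotypes with altered Trp53. Wnt6 (gene 22420, chr1:74771892-74785322, plus strand) encodes a ligand of epithelial cells. Its level was 5.54 and 4.04 rpkm in the Trp53 +/+ libraries, 31.9 and 4.92 in the Trp53 flox/flox libraries, and 16.4 and 19.5 in the Trp53 R270H/R270H libraries. Both Trp53 R270H/R270H libraries were above both Trp53 +/+ libraries, while Trp53 flox/flox replicate 1 was the highest library and replicate 2 lay within the Trp53 +/+ range. Genotype means were 4.79±1.06, 18.4±19.1 and 18.0±2.17 rpkm, so that Wnt6 exceeded its Trp53 +/+ mean by 3.75-fold in Trp53 R270H/R270H and by 3.85-fold in Trp53 flox/flox. On log2(rpkm+1) neither difference passed limma's test with Benjamini-Hochberg adjustment over 10042 genes (1.72, s.e. 0.78, adjusted p=0.205, and 1.28, s.e. 0.78, adjusted p=0.289). Trp53 R270H/R270H and Trp53 flox/flox differed by 0.44 with a 95% interval from -1.55 to 2.42 (adjusted p=0.691), an interval that leaves room for a large difference either way. The Trp53 flox/flox libraries decided these calls. When either Trp53 flox/flox library was left out, the difference of 1.72 between Trp53 R270H/R270H and Trp53 +/+ was called. Trp53 flox/flox differed from Trp53 +/+ by 0.045 without replicate 1 and by 2.52 without replicate 2. Trp53 R270H/R270H differed from Trp53 flox/flox by 1.67 without replicate 1 and by -0.80 without replicate 2. With 1 Trp53 flox/flox library left, its spread was taken from the other genotypes, so these last differences are not read as calls.

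Wnt10a (gene 22409, chr1:74791516-74804179, plus strand), a ligand known from skin appendages and teeth, had a similar profile at lower levels. It was at 1.19 rpkm and at the floor in the Trp53 +/+ libraries, at 16.5 and 3.16 in the Trp53 flox/flox libraries, and at 8.45 and 8.29 in the Trp53 R270H/R270H libraries. All 4 libraries with altered Trp53 were above both Trp53 +/+ libraries. The means were 1.10±0.137, 9.81±9.41 and 8.37±0.113 rpkm, which is a difference of at least 7.63-fold for Trp53 R270H/R270H and at least 8.94-fold for Trp53 flox/flox over Trp53 +/+, since 1 Trp53 +/+ library was at the floor. In limma the log2 differences from Trp53 +/+ were 2.16 (s.e. 0.65, adjusted p=0.0928) and 2.02 (s.e. 0.65, adjusted p=0.101), which missed the threshold of 0.05. Trp53 R270H/R270H and Trp53 flox/flox differed by 0.14 (95% interval -1.52 to 1.79, adjusted p=0.885). Here too a Trp53 flox/flox library decided the call. When either Trp53 flox/flox library was left out, the difference of 2.16 between Trp53 R270H/R270H and Trp53 +/+ was called. Wnt10a passed the filter of 4 rpkm only through libraries with altered Trp53, in which it was high. Without Trp53 flox/flox replicate 1 it passed only through Trp53 R270H/R270H. This call is thus no support beyond the values. Trp53 flox/flox differed from Trp53 +/+ by 0.99 without replicate 1 and by 3.06 without replicate 2. Against Trp53 flox/flox, the Trp53 R270H/R270H difference was 1.17 without replicate 1 and -0.90 without replicate 2. The 1 Trp53 flox/flox library left gave no spread of its own, so its differences are not read as calls.

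**Figure D1:**
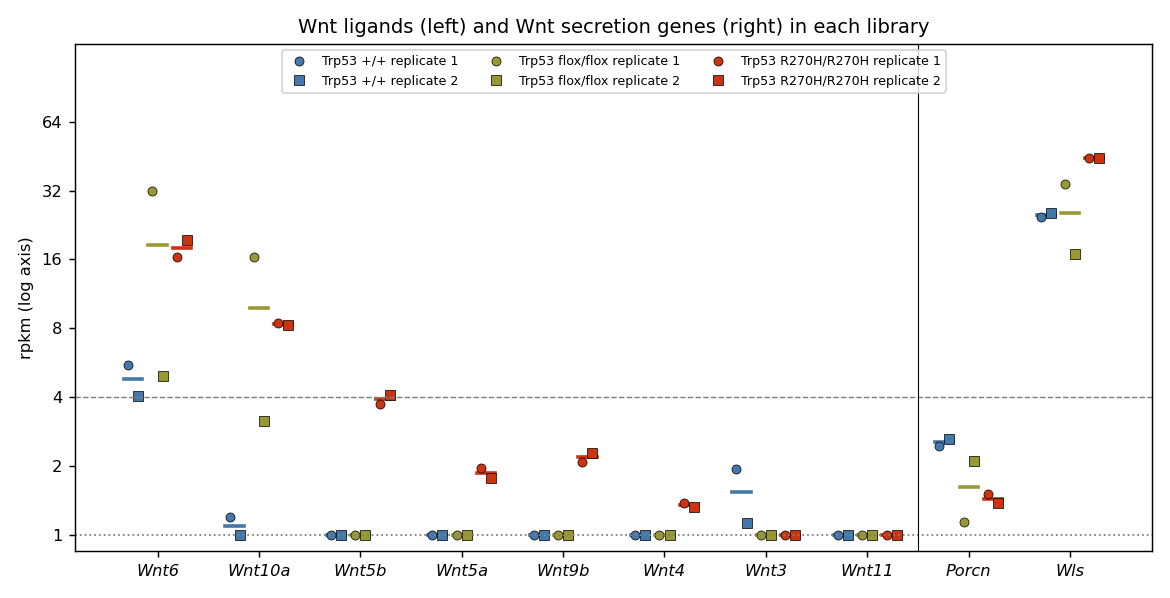
Level of each of the 10 members in each of the 6 libraries, in rpkm on a log axis, with genotypes by color, replicates by shape and short bars for genotype means; the dotted line is the floor of 1 rpkm and the dashed line the filter of 4 rpkm. Wnt5b, Wnt5a, Wnt9b and Wnt4 leave the floor in the Trp53 R270H/R270H libraries (for Wnt5b 3.73 and 4.10 rpkm), and the Trp53 flox/flox libraries lie far apart for Wnt6 (31.9 and 4.92 rpkm) and Wnt10a (16.5 and 3.16 rpkm).

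Wnt6 and Wnt10a moved together between the Trp53 flox/flox libraries. Replicate 1 exceeded replicate 2 by 6.49-fold for Wnt6 and by 5.22-fold for Wnt10a, and a difference of at least that size on log2(rpkm+1), in the same direction, was seen in 13 (0.129%) and 30 (0.299%) of the 10042 genes that passed the filter. The ratio of Wnt6 to Wnt10a was 1.94 and 1.56 in the Trp53 flox/flox libraries and 1.94 and 2.35 in the Trp53 R270H/R270H libraries. In Trp53 +/+ it was 4.64 in replicate 1 and at least 4.04 in replicate 2, where Wnt10a was at the floor. Of the summed level of the member ligands above the floor, the pair made up 77.6% and 78.2% in the Trp53 +/+ libraries, all in the Trp53 flox/flox libraries, and 73.1% and 74.6% in the Trp53 R270H/R270H libraries.

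The end of Wnt6 and the start of Wnt10a are 6.193 kb apart, and the genes around them were read in a window of 250 kb on either side, a window chosen after the values of the pair had been seen. It holds 16 genes, of which 8 passed the filter, 6 of them not members. Between the Trp53 flox/flox libraries these 6 genes differed on log2(rpkm+1) by -1.60 (Ihh) to 0.55 (Rnf25), replicate 1 minus replicate 2, with a median of -0.21, against 2.48 for Wnt6 and 2.07 for Wnt10a. The median over the 527 genes of chromosome 1 that passed the filter was -0.05, and 4 of them, the pair included, had a difference at least as large as that of Wnt10a. Ihh, which encodes the hedgehog ligand of the intestinal epithelium, was at 31.2 and 30.9 rpkm in Trp53 +/+, 4.81 and 16.6 in Trp53 flox/flox, and 5.04 and 5.64 in Trp53 R270H/R270H libraries. Ihh was thus lowest where the Wnt pair was high, with all 4 libraries of altered Trp53 below both Trp53 +/+ libraries. Cyp27a1, a sterol hydroxylase gene on the other side of the pair, was at 8.71 and 9.44, 6.46 and 6.86, and 20.8 and 19.3 rpkm in the same order.

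**Figure D2:**
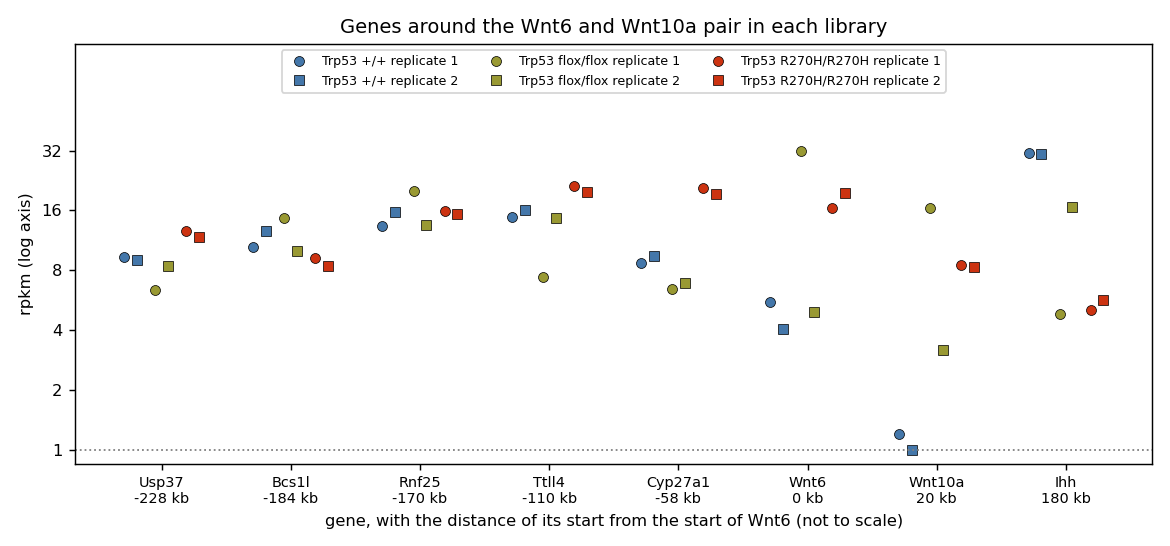
Level in rpkm on a log axis, in each of the 6 libraries, of the 8 genes within 250 kb of the Wnt6 and Wnt10a pair that passed the filter, ordered by the distance of their start from that of Wnt6 and not drawn to scale. Wnt6 and Wnt10a are higher in Trp53 flox/flox replicate 1 than in replicate 2, whereas Ihh is at 4.81 rpkm in replicate 1 and 16.6 rpkm in replicate 2.

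Wnt5b, Wnt5a, Wnt9b and Wnt4 were above the floor in both Trp53 R270H/R270H libraries and at the floor in the other 4 libraries. This pattern was held by 305 of the 12412 genes above the floor in at least 1 library (2.46%). Wnt5b (gene 22419, chr6:119432531-119544347, minus strand), a ligand of β-catenin-independent signaling, was at 3.73 and 4.10 rpkm in the Trp53 R270H/R270H libraries. Its mean there was 3.92±0.262 rpkm, at least 3.92-fold higher than in either other genotype. It was the member that passed limma's test, with a log2 difference of 1.30 (s.e. 0.15, 95% interval 0.92 to 1.67) from both, at adjusted p=0.0101 against Trp53 +/+ and adjusted p=0.00763 against Trp53 flox/flox. Of all genes tested, 12.2% were called in either direction against Trp53 +/+ and 24.6% against Trp53 flox/flox. Wnt5b passed the filter of 4 rpkm through 1 library of the genotype in which it was high, Trp53 R270H/R270H replicate 2, and was not tested without it. The other 4 libraries were at the floor, so that its test adds little to the values themselves and the count of 1 call among the 4 tested members is not a result about the members. The call against Trp53 +/+ was lost without Trp53 +/+ replicate 1 (adjusted p=0.106), Trp53 +/+ replicate 2 (adjusted p=0.137) or Trp53 R270H/R270H replicate 1 (adjusted p=0.0585). Against Trp53 flox/flox the call was lost when only these 2 genotypes were fitted (adjusted p=0.0595) and with weights for each genotype (adjusted p=0.0617).

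Wnt5a (gene 22418, chr14:28504750-28527448, plus strand), the close relative of Wnt5b and a ligand of Ror2, was at 1.96 and 1.77 rpkm in the Trp53 R270H/R270H libraries (1.86±0.135). Wnt9b (gene 22412, chr11:103727364-103749821, minus strand), known as an inducer of kidney tubules, was at 2.08 and 2.28 rpkm (2.18±0.145). Wnt4 (gene 22417, chr4:137277489-137299726, plus strand), a ligand of kidney and gonad development, was at 1.37 and 1.32 rpkm (1.35±0.0324). All 3 stayed under the filter of 4 rpkm and were tested with a lower filter, above 1 rpkm in at least 1 library, which left 12412 genes. With it Wnt9b (0.67, adjusted p=0.00394), Wnt5a (0.52, adjusted p=0.00739) and Wnt4 (0.23, adjusted p=0.0285) were called higher than in Trp53 +/+ by limma, beside Wnt5b (adjusted p=0.00146). The same 4 were called against Trp53 flox/flox, at adjusted p=0.00114 for Wnt5b, 0.00353 for Wnt9b, 0.00655 for Wnt5a and 0.0220 for Wnt4. Of all genes tested with this filter, 8.37% were called higher against Trp53 +/+ and 15.4% against Trp53 flox/flox. Without any filter, Wnt5a (adjusted p=0.0691 and 0.0564 in limma) and Wnt4 (adjusted p=0.198 and 0.157) were not called in either comparison, while Wnt9b (adjusted p=0.0456 and 0.0388) and Wnt5b (adjusted p=0.0212 and 0.0175) were. These genes entered the test only through the Trp53 R270H/R270H libraries, in which they were high, and the calls are no support beyond the values. The floor gives the other 4 libraries a spread of 0 for these genes, so that the standard errors, 0.04 for Wnt4 and 0.05 for Wnt9b and Wnt5a, rest on the difference between the Trp53 R270H/R270H libraries and on the spread of other genes.

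Markers of stromal cells were examined beside these ligands. Of 12 fibroblast and muscle markers, 1 was above the floor in each Trp53 +/+ library, 1 and 6 in the Trp53 flox/flox libraries and 2 in each Trp53 R270H/R270H library. Col1a2, Col3a1, Lum, Foxl1, Thy1 and Des were at the floor in all 6 libraries, and Col1a1, Pdgfra, Pdgfrb and Dcn were at it in both Trp53 R270H/R270H libraries. The summed level of the list was 61.0 to 80.0 rpkm for Trp53 +/+ libraries, 43.4 to 82.6 rpkm for Trp53 flox/flox and 296 to 318 rpkm for Trp53 R270H/R270H. Vim, an intermediate filament gene that epithelial tumor cells can also express, carried most of it, at 306 and 284 rpkm in the Trp53 R270H/R270H libraries and 49.95 to 69.0 in Trp53 +/+. Acta2 was at 1.53 and 1.59 rpkm in the Trp53 R270H/R270H libraries and at 11.5 in Trp53 flox/flox replicate 2, the library in which Col1a1 (2.44 rpkm) and Lyz2 (5.67 rpkm) were also above the floor and in which Wnt5b, Wnt5a, Wnt9b and Wnt4 were not. Of 8 immune and endothelial markers 1 to 3 were above the floor in a library, with Ptprc, Cd3e, Adgre1, Pecam1 and Kdr at it throughout, and their summed level was 25.1 and 25.2 rpkm for Trp53 +/+ libraries, 9.06 and 25.1 rpkm for Trp53 flox/flox and 9.27 and 9.41 rpkm for Trp53 R270H/R270H. Cd68, a macrophage marker, and Cdh5, an endothelial cadherin, carried most of the sums of the Trp53 +/+ libraries. Cd68 was at 10.2 and 9.87 rpkm in the Trp53 +/+ libraries, 2.06 and 11.1 in those of Trp53 flox/flox, and 2.22 and 2.41 in those of Trp53 R270H/R270H. Cdh5 was at 8.88 and 9.35 rpkm, at the floor and 3.30, and at 1.04 and the floor in the same order. It was called lower than in Trp53 +/+ in both other genotypes (adjusted p=0.0224 for Trp53 R270H/R270H and 0.0411 for Trp53 flox/flox in limma). Cdh5 passed the filter of 4 rpkm only through the Trp53 +/+ libraries, in which it was high, and these calls are no support beyond the values.

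Wnt3 showed the opposite order, and Wnt11 was not detected above the floor. Wnt3 (gene 22415, chr11:103774150-103817957, plus strand) was at 1.94 and 1.13 rpkm in the Trp53 +/+ libraries (1.53±0.573) and at the floor in the other 4. Its mean in Trp53 +/+ was at least 1.53-fold higher than in either other genotype, and with the lower filter the difference of -0.32 between Trp53 R270H/R270H and Trp53 +/+ did not pass limma's test (adjusted p=0.227). The 7 Paneth cell markers (Lyz1, Mmp7, Ang4, Defa17, Defa22, Defa24 and Itln1) were above the floor in every library, with summed levels of 1776 and 1423 rpkm in Trp53 +/+, 602 and 631 in Trp53 flox/flox, and 568 and 621 in Trp53 R270H/R270H. Of these 7, limma called 5 lower and 2 higher in Trp53 R270H/R270H and 5 lower in Trp53 flox/flox, each against Trp53 +/+. Of the 10042 genes tested, 639 were called lower and 588 higher in Trp53 R270H/R270H. In Trp53 flox/flox 693 were called lower and 440 higher. The marker calls are not given here with a library left out. Cdh5 was also highest in the Trp53 +/+ libraries, whereas the endothelial markers Pecam1 and Kdr were at the floor in all 6 libraries. The part of these markers in the Wnt3 values was not tested. Wnt3 and Wnt9b are neighbors on chromosome 11, transcribed away from each other with 24.3 kb between their starts, and were above the floor in different genotypes. Wnt11 (gene 22411, chr7:98835112-98855195, plus strand), a ligand of cell movements in the embryo, stood at the floor in all 6 libraries. At the depth of the 5 libraries whose estimates were used, the floor stands for about 160 to 171 reads of Wnt11.

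Counted over the 8 member ligands, 3 and 2 were above the floor in the Trp53 +/+ libraries, 2 and 2 in the Trp53 flox/flox libraries, and 6 and 6 in the Trp53 R270H/R270H libraries. Over all 19 Wnt ligand genes of the table the counts were 4 and 3, 3 and 4, and 8 and 9. More ligand genes were thus read above the floor in each Trp53 R270H/R270H library than in any other. The share of all genes above the floor was not counted by library, so this order is not shown to be particular to ligands. The summed level of the member ligands above the floor did not follow this order, since it was 8.67 and 5.17 rpkm in Trp53 +/+, 48.4 and 8.08 in Trp53 flox/flox, and 34.0 and 37.3 in Trp53 R270H/R270H libraries. The largest sum was that of Trp53 flox/flox replicate 1, which came from Wnt6 and Wnt10a.

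Of the secretion genes, Wls was the most abundant member in every genotype. Wls (gene 68151, chr3:159839672-159938664, plus strand) was at 24.4 and 25.5 rpkm in the Trp53 +/+ libraries, 34.2 and 17.0 in the Trp53 flox/flox libraries, and 44.5 and 44.3 in the Trp53 R270H/R270H libraries. Both Trp53 R270H/R270H libraries were above the other 4, a pattern shared by 5 of the 10 members (Wls, Wnt4, Wnt5a, Wnt5b and Wnt9b) and by 27.2% of the 12412 genes above the floor. The mean of 44.4±0.130 rpkm was 1.78-fold higher than in Trp53 +/+ (25.0±0.746) and 1.74-fold higher than in Trp53 flox/flox (25.6±12.2). Neither log2 difference passed limma's test after adjustment (0.81, s.e. 0.31, adjusted p=0.150, and 0.85, s.e. 0.31, adjusted p=0.101), and Trp53 flox/flox and Trp53 +/+ differed by -0.05 (95% interval -0.84 to 0.75, adjusted p=0.929). The calls turned on the Trp53 flox/flox libraries, which were 2.01-fold apart. When either of them was left out, the difference of 0.81 between Trp53 R270H/R270H and Trp53 +/+ was called. Trp53 R270H/R270H exceeded Trp53 flox/flox by 1.34 without replicate 1 and by 0.37 without replicate 2. Trp53 flox/flox against Trp53 +/+ was -0.53 without replicate 1 and 0.44 without replicate 2. Again the 1 Trp53 flox/flox library left gave no spread of its own, so its differences are not read as calls.

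Porcn (gene 53627, chrX:8193848-8206525, minus strand) was at 2.44 and 2.62 rpkm in the Trp53 +/+ libraries, 1.14 and 2.09 in the Trp53 flox/flox libraries, and 1.5 and 1.38 in the Trp53 R270H/R270H libraries. Both Trp53 +/+ libraries were above the other 4, whereas the ranges of the other genotypes overlapped. Its means were 2.53±0.128, 1.61±0.677 and 1.44±0.0895 rpkm, so that Trp53 +/+ was 1.76-fold higher than Trp53 R270H/R270H and 1.57-fold higher than Trp53 flox/flox. Under the lower filter these differences did not pass limma's test (-0.53, adjusted p=0.120, and -0.46, adjusted p=0.163). The secretion genes thus stood in opposite order in Trp53 R270H/R270H and Trp53 +/+ libraries, with Wls higher and Porcn lower in Trp53 R270H/R270H. These genotypes did not overlap for either gene, but how many of all genes show no such overlap was not counted.

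**Figure D3:**
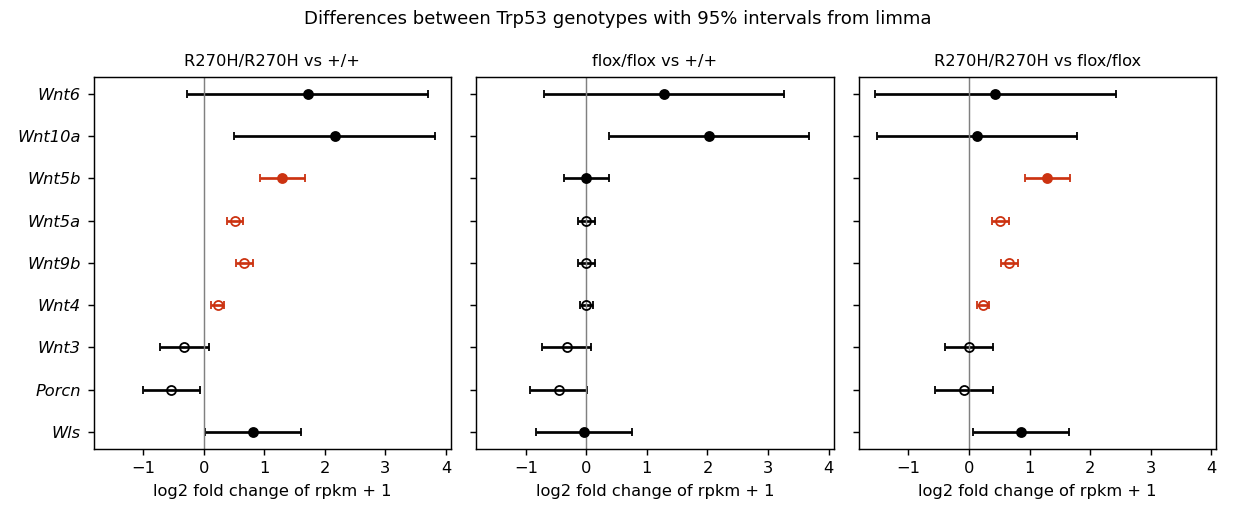
Difference between genotypes on the log2(rpkm+1) scale for 9 members, with 95% intervals from limma; filled points are from the filter of 4 rpkm, open points are members tested only with the filter above 1 rpkm, and red marks adjusted p under 0.05. Wnt5b differs by 1.30 in both comparisons of Trp53 R270H/R270H, and the intervals of Wnt6, Wnt10a and Wls are wide (for Wnt6 against Trp53 +/+ from -0.27 to 3.71).

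By the 2-fold rule on genotype means, without regard to the spread, 4 members were apart in Trp53 R270H/R270H against Trp53 +/+ (Wnt6, Wnt10a, Wnt5b and Wnt9b, all higher). Wnt9b had not passed the filter, so that 3 of the 4 members that had are to be read against the 10.5% of all genes that passed it. In Trp53 flox/flox against Trp53 +/+ there were 2 (Wnt6 and Wnt10a, both higher) against 11.0% of genes. In Trp53 R270H/R270H against Trp53 flox/flox there were 2 (Wnt5b and Wnt9b, both higher). Of these only Wnt5b belongs to the filtered genes, of which 15.4% were 2-fold apart. Wnt5b had passed the filter only through Trp53 R270H/R270H replicate 2, and Wnt10a only through libraries with altered Trp53. These 2-fold counts are thus no support beyond the values. In limma no member was called between Trp53 flox/flox and Trp53 +/+, where 11.3% of genes were, and 1 of the 4 tested, Wnt10a, had an unadjusted p under 0.05. These comparisons share their libraries by pairs and are not independent of each other. With 2 libraries against 2, an exact permutation test of a single gene cannot give a two-sided p below 0.333, and the calls rest on the spread that limma pools over genes.

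Within a genotype, neighbors in the order of levels were compared by whether their libraries overlapped. In Trp53 R270H/R270H the order was Wls, Wnt6, Wnt10a, Wnt5b, Wnt9b, Wnt5a, Porcn and Wnt4, each separate from the next, with Wnt11 and Wnt3 at the floor. Porcn and Wnt4 were no longer separate when the libraries were rescaled. In Trp53 +/+ it was Wls, Wnt6, Porcn and Wnt3, each separate from the next, but Wnt3 and Wnt10a overlapped and the other 5 ligands were at the floor. In Trp53 flox/flox the ranges of Wls, Wnt6 and Wnt10a overlapped from neighbor to neighbor, Porcn was separate below them, and the other 6 ligands were at the floor. The order of Porcn among the ligands thus changed, since 1 member ligand was above it in the Trp53 +/+ organoids, 2 in those of Trp53 flox/flox and 5 in those of Trp53 R270H/R270H.

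The other genes of the pathway were read from 5 lists with 64 genes, of which 35 passed the filter. In limma 2 rose and 1 fell in Trp53 R270H/R270H against Trp53 +/+, 2 fell in Trp53 flox/flox against Trp53 +/+, and 8 rose and 4 fell in Trp53 R270H/R270H against Trp53 flox/flox. These calls are 8.57%, 5.71% and 34.3% of the 35 genes, beside 12.2%, 11.3% and 24.6% of all genes tested. These counts depended on single libraries. Without Trp53 flox/flox replicate 1 they were 24, 12 and 21, and without replicate 2 they were 24, 21 and 26. Without any one of the other 4 libraries no comparison had more than 1 call. Of the calls named below, that of Dkk2 in Trp53 R270H/R270H against Trp53 flox/flox held whichever library was left out. Dkk2 passed the filter only through the Trp53 R270H/R270H libraries, in which it was high. That its call held is thus no support beyond the values. Each of the other calls was lost in limma without at least 3 of the Trp53 +/+ and Trp53 R270H/R270H libraries.

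Among 11 other Wnt ligand genes only Wnt7b passed the filter. Wnt7b, a ligand expressed by many epithelia, was at 2.91 and 2.96 rpkm in Trp53 +/+, 9.30 and 4.99 in Trp53 flox/flox, and 2.50 and 2.20 in Trp53 R270H/R270H libraries. It was lower in Trp53 R270H/R270H than in Trp53 flox/flox by limma (-1.23, s.e. 0.27, adjusted p=0.0327), the opposite direction to Wnt5b. Wnt7b passed the filter of 4 rpkm only through the Trp53 flox/flox libraries, in which it was high. This call is thus no support beyond the values. Of 11 partners of Wnt secretion and sorting all passed the filter and Snx3 alone was called. Snx3, a sorting nexin that helps retrieve Wls from endosomes, was at 55.8 and 57.5, 107 and 73.6, and 53.9 and 53.5 rpkm in the same order of genotypes, and was lower in Trp53 R270H/R270H than in Trp53 flox/flox (-0.71, adjusted p=0.0475). The median log2 difference of these 11 genes was -0.01 against Trp53 +/+ and -0.07 against Trp53 flox/flox, beside 0.03 in each for all genes tested.

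Extracellular Wnt inhibitors held the largest differences of the 5 lists. Of 14 genes 6 passed the filter, and 5 of these rose in Trp53 R270H/R270H against Trp53 flox/flox, with a median of 3.09 over the 6. Of all genes tested, 13.6% were called higher in this comparison. Against Trp53 +/+ 1 rose, with a median of 2.13. Dkk2, which binds the Lrp co-receptors, was called in all 3 comparisons. It was at 1.94 and 2.66 rpkm in Trp53 +/+, at the floor in both Trp53 flox/flox libraries, and at 15.2 and 14.4 in Trp53 R270H/R270H libraries, and it passed the filter through the last of these alone. Its log2 differences in limma were 2.27 (adjusted p=0.00367) for Trp53 R270H/R270H and -0.71 (adjusted p=0.0478) for Trp53 flox/flox against Trp53 +/+, and 2.98 (adjusted p=0.00184) between them. The Trp53 R270H/R270H libraries, in which Dkk2 was high, alone brought it into the test. The calls of Dkk2 in that genotype are thus no support beyond the values. Notum, the enzyme that removes the fatty acid from Wnt proteins and so undoes the work of Porcn, was at 82.3 and 78.9, 8.52 and 21.5, and 113 and 121 rpkm in the same order. It fell in Trp53 flox/flox against Trp53 +/+ by 2.48 on the log2 scale (adjusted p=0.0273 in limma) and Trp53 R270H/R270H exceeded Trp53 flox/flox by 3.01 (adjusted p=0.0107). The 3 other genes called in Trp53 R270H/R270H against Trp53 flox/flox were not called against Trp53 +/+. Wif1, a secreted protein that binds Wnt ligands, was at 15.5 and 16.5, 1.66 and 7.41, and 71.4 and 69.9 rpkm (3.92, adjusted p=0.0111 in limma, and 2.08 against Trp53 +/+, adjusted p=0.0618). Apcdd1, a membrane protein that inhibits Wnt signaling, was at 23.2 and 18.6, 31.7 and 3.84, and 244 and 238 rpkm (4.27, adjusted p=0.0269 in limma, and 3.48 against Trp53 +/+, adjusted p=0.0600). Dkk3, a secreted relative of Dkk2, was at 12.1 and 11.5, 1.47 and 13.5, and 52.2 and 52.9 rpkm (3.16, adjusted p=0.0431 in limma, and 2.06 against Trp53 +/+, adjusted p=0.149). For each of these 3 genes both Trp53 R270H/R270H libraries were above the other 4.

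Among 17 receptors and planar polarity genes of β-catenin-independent signaling 11 passed the filter, 1 fell in Trp53 R270H/R270H against Trp53 +/+, and 2 rose and 2 fell against Trp53 flox/flox. Ror2, the receptor of Wnt5a, was at 4.80 and 4.25 rpkm in Trp53 +/+, 5.65 and 5.99 in Trp53 flox/flox, and 2.17 and 2.61 in Trp53 R270H/R270H libraries. It fell by 0.71 on the log2 scale against Trp53 +/+ (adjusted p=0.0369 in limma) and by 1.01 against Trp53 flox/flox (adjusted p=0.0118). The receptor was thus lower in the libraries in which Wnt5a and Wnt5b were above the floor. Ror2 passed the filter of 4 rpkm only through the Trp53 +/+ and Trp53 flox/flox libraries, in which it was higher. Its calls are no support beyond the values. Ptk7, a pseudokinase co-receptor of planar polarity, was at 23.4 and 21.6, 10.2 and 17.6, and 26.0 and 30.4 rpkm in the same order, and Daam1, a formin that acts downstream of Dishevelled, was at 11.5 and 11.0, 8.19 and 11.0, and 17.3 and 16.4. Both rose in Trp53 R270H/R270H against Trp53 flox/flox (Ptk7 1.01, adjusted p=0.0438, and Daam1 0.77, adjusted p=0.0259, in limma). Vangl1, a core planar polarity protein of the membrane, was lower there by limma (-0.50, adjusted p=0.0256), at 12.8 and 13.1, 14.5 and 15.2, and 10.5 and 9.91 rpkm. The median difference of the 11 genes was 0.25 against Trp53 +/+ and -0.09 against Trp53 flox/flox.

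Of 11 canonical co-receptors, R-spondins and their partners 6 passed the filter and Znrf3 was called. Znrf3, a ubiquitin ligase that removes Frizzled receptors from the membrane, was at 11.6 and 10.9 rpkm in Trp53 +/+, 5.73 and 9.82 in Trp53 flox/flox, and 25.1 and 23.6 in Trp53 R270H/R270H libraries. It rose by 1.05 on the log2 scale against Trp53 +/+ (adjusted p=0.0490 in limma) and by 1.57 against Trp53 flox/flox (adjusted p=0.0144). The median of the 6 genes was -0.02 and 0.63 in these comparisons.

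**Figure D4:**
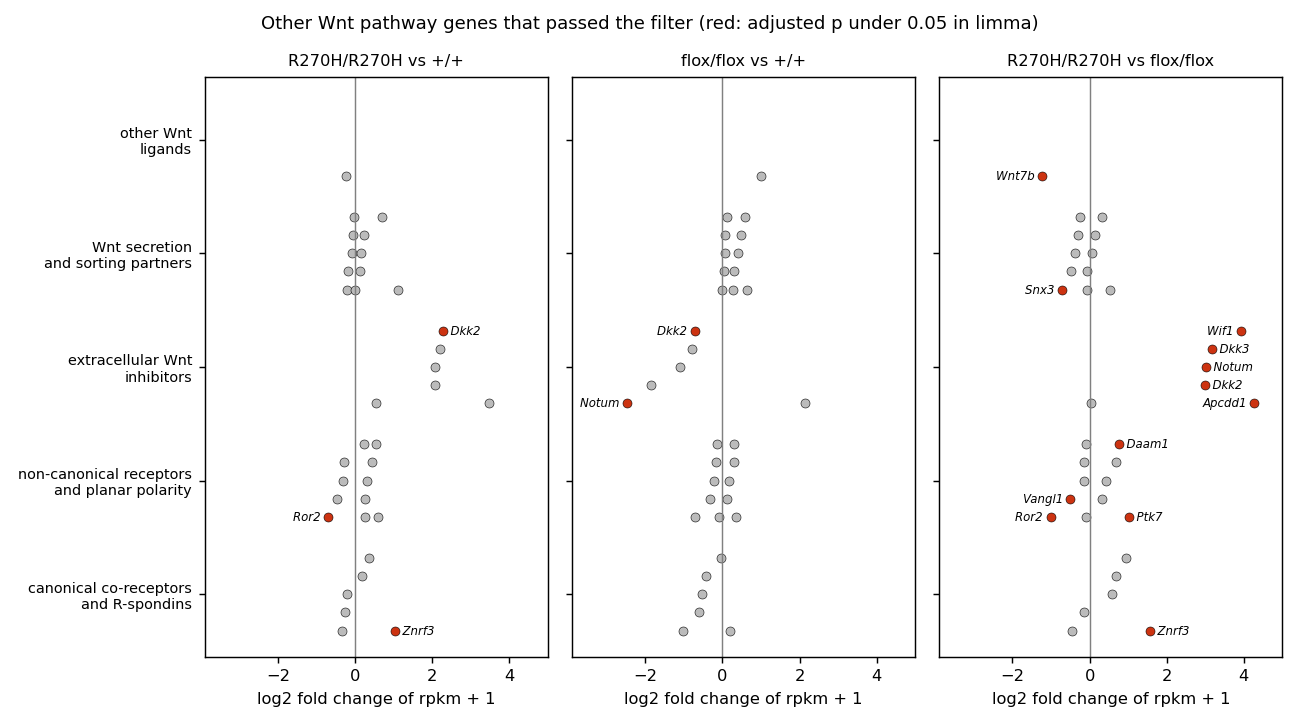
Difference between genotypes on the log2(rpkm+1) scale for the 35 other Wnt pathway genes that passed the filter, by list; each point is a gene, points are spread vertically within a list only for legibility, and red marks adjusted p under 0.05 in limma. The extracellular inhibitors reach 4.27 (Apcdd1) in Trp53 R270H/R270H against Trp53 flox/flox, and the secretion and sorting partners have a median of -0.07 there.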

How the data were processed

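The authors mapped poly(A) RNA reads, from stranded libraries, to mm10 and calculated the deposited rpkm values with StrandNGS. The version, gene annotation, gene lengths and read filters are not given in the sources used here. The floor of 1 rpkm was inferred from the values, so ratios against a genotype at the floor are lower bounds. Because the deposited unit is rpkm, no count model was used. All columns of the table belong to the 6 libraries and groups come from the sample titles.

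The filter required 4 rpkm or more in any library, and log2(rpkm+1), which understates the change of low genes, was fitted for all 6 libraries with limma 3.58.1 in R 4.3.3 (lmFit, eBayes with trend, two-sided, Benjamini-Hochberg over 10042 genes, called at an adjusted p under 0.05). The lower filter of 1 rpkm was an alternative. The code was tested on simulated data. Python 3.11.15 with numpy 2.4.6, pandas 2.3.3 and matplotlib 3.10.9 did the rest. Gene positions and exon lengths come from GENCODE on GRCm38, and upstream sequences from RefSeq on GRCm38.p6. The table's own symbols were matched, except Trabd2b and Adgre1, which were found by an alias or an older symbol. Depth was estimated from RNA genes under 230 nt.

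The 10 members, the 5 pathway lists and the marker lists were chosen with earlier results of these data known, and 1 further marker gene is not reported here. All members are named. From each pathway list the genes called in at least 1 comparison are named, at most 6, and a list with no call would be represented by its genes of highest mean. Alternatives were 18 settings, which comprised other filters, pseudocounts and scalings, no trend, weights for each genotype, fits of 2 genotypes only, blocks on the replicate number, and each library left out.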

Additional observations from a re-analysis of the deposited data

How the results depend on the processing

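Counts of calls depended strongly on how the spread was estimated. The comparisons are given in the order Trp53 R270H/R270H against Trp53 +/+, then Trp53 flox/flox against Trp53 +/+, then Trp53 R270H/R270H against Trp53 flox/flox. With 1227, 1133 and 2469 of all genes called, fits of only the 2 genotypes compared gave 5768, 59 and 397, weights for each genotype 5987, 150 and 534, and no filter 427, 73 and 750, and the filter above 1 rpkm gave 1907 in the first. For the members, 1, 0 and 1 were called. Fits of only 2 genotypes and weights each called 4 in the first comparison (Wls, Wnt10a, Wnt5b and Wnt6) and 0 in the third. The filter above 1 rpkm called 4, and no filter 2 (Wnt5b and Wnt9b), in the first and the third. The filter of 4 rpkm in both libraries of a genotype left Wnt5b untested and called 0 in both. For the pathway genes (3, 2 and 12), fits of only 2 genotypes gave 23, 0 and 3, weights 23, 1 and 6, and no filter 0 in the second and 3 in the third.

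The labels give each genotype the same replicate numbers, but each number is another mouse. The deviations of libraries with the same number correlated by 0.117 for Trp53 +/+ with Trp53 flox/flox, by -0.29 for Trp53 +/+ with Trp53 R270H/R270H and by -0.20 for the remaining pair of genotypes, so the numbers do not pair the libraries. A replicate block gave 550, 280 and 1156 calls over all genes, and 1, 1 and 7 pathway genes. A block in which the numbers of Trp53 R270H/R270H were swapped gave 941, 873 and 2276, and 1 pathway gene in each of the first and the second. Neither block changed a member's call.

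Leaving out 1 library gave 0 to 5746, 8 to 6891 and 165 to 7241 calls over all genes, 0 to 4, 0 to 3 and 0 to 4 members, and 0 to 24, 0 to 21 and 1 to 26 pathway genes. Members at least 2-fold apart were 4 throughout in the first comparison, 1 to 3 in the second and 2 to 5 in the third. A genotype left with 1 library was assumed to vary like the others. Without Trp53 flox/flox replicate 2, Wnt6 (-0.80) and Wnt10a (-0.90) turned direction in the third comparison and Wls (0.44) in the second, where values without replicate 1 were 1.67, 1.17 and -0.53. Of 13 separations between neighbors in the order of levels, that of Porcn from Wnt4 in Trp53 R270H/R270H was lost under both scalings, which left 12, and the order could not be taken with 1 library left out. The cause of these shifts was not tested. Over single genes 214 values kept direction and call, 20 gained and 5 lost the call, and 3 reversed. The floor limits what can be seen, since levels under 1 rpkm are unknown.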

Other observations

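A few pathway genes outside the naming rule are given here because their values, once seen, stood out. Rspo3, an R-spondin that amplifies Wnt signaling, was at 3.29 and 2.79 rpkm in the Trp53 +/+ libraries and at the floor in the other 4. The endothelial marker Cdh5 was also highest in the Trp53 +/+ libraries, whereas the endothelial markers Pecam1 and Kdr were at the floor in all 6 libraries. The part of Cdh5 in the Rspo3 values was not tested. Rspo4 was at 1.84 and 1.75 rpkm in the Trp53 R270H/R270H libraries and at the floor elsewhere. Neither passed the filter of 4 rpkm. Sfrp5, a secreted Wnt antagonist, was at the floor in Trp53 +/+, at 18.1 and 3.09 rpkm in Trp53 flox/flox and at 6.10 and 10.7 in Trp53 R270H/R270H libraries, and its differences from Trp53 +/+ in limma were 2.14 (adjusted p=0.111) and 2.19 (adjusted p=0.113). Like Wnt6 and Wnt10a, it was higher in Trp53 flox/flox replicate 1 than in replicate 2.

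Scd1, a desaturase that makes the monounsaturated fatty acid Porcn attaches to Wnt proteins, was at 82.5 and 86.4 rpkm in Trp53 +/+, 86.9 and 185 in Trp53 flox/flox, and 189 and 178 in Trp53 R270H/R270H libraries. Scd2 was at 412 and 392, 423 and 664, and 648 and 666 rpkm in the same order. Both Trp53 R270H/R270H libraries were above both Trp53 +/+ libraries for each gene, but the differences did not pass limma's test (Scd1 1.11, adjusted p=0.10, and Scd2 0.71, adjusted p=0.107), and Trp53 flox/flox replicate 2 was close to the Trp53 R270H/R270H level while replicate 1 was close to Trp53 +/+.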
